A study of Mus musculus with 8 samples.

Results

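The erythroid genes described here are 8 genes of the red blood cell lineage, Hba-a1, Car1, Car2, Klf1, Gata1, Epor, Slc4a1 and Alas2, out of 26143 genes with a summed expression value in this series. They were chosen by their TPM (transcript abundance scaled for transcript length and library size) in pre-B cells, which differed between libraries, so their levels are given as a description and without a test. Expression was measured by RNA-seq in sorted pre-B cells, with 2 WT and 2 Dido1dE16 libraries, each from a pool of 2 to 3 mice. Accessible chromatin was mapped by Omni-ATAC-seq in sorted LSK cells (lineage-negative, Sca1+, cKit+ bone marrow cells that hold the stem and multipotent progenitor cells), also with 2 WT and 2 Dido1dE16 libraries. All mice were C57BL/6, 6 to 10 weeks old, and carried an iCre transgene driven by the Vav1 promoter, which is active throughout the blood lineages, and a Cre-inducible R26R-EYFP reporter. Dido1dE16 mice were Dido1 flE16/ΔE16, so that Cre removes exon 16, the last exon of the Dido3 isoform, from their only complete copy of Dido1. WT mice were Dido1 flE16/+ littermates, so the controls carried Cre, the reporter and 1 floxed allele as well. Cre can remove exon 16 from that allele too, and the study also calls these controls heterozygous. The 2 assays were made on different cells, and no library gives both readouts.

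Red blood cells are made from erythroid progenitors under the hormone erythropoietin, which acts through the receptor Epor. The transcription factors Gata1 and Klf1 switch on the genes of the red cell, among them the alpha-globin gene Hba-a1, the first enzyme of haem synthesis in erythroid cells (Alas2), the anion exchanger of the red cell membrane (Slc4a1, known as band 3) and the carbonic anhydrases Car1 and Car2, which convert carbon dioxide and bicarbonate. B-cell precursors belong to another branch of blood formation and are not known for red cell proteins, although Car2 and several enzymes of haem synthesis are found in many cell types.

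The exon targeted in these mice behaved as labelled. Exon 16, the terminal exon of the 16-exon Dido1 transcript, was covered to a mean depth of 15.3 and 10.2 in the WT libraries, against 0.192 and 0.0390 in the Dido1dE16 libraries, while the other exons had 19.7 to 30.5 in the 4 libraries. The RNA-seq libraries held 1121 to 1635 Mb of sequence aligned to annotated exons. The ATAC-seq libraries held 10249256 and 52050898 tags (WT replicates 1 and 2) and 22533077 and 44633938 tags (Dido1dE16 replicates 1 and 2), and MACS2 peaks numbered 27352, 57739, 13208 and 16329 in the same order. In the pre-B libraries the B-cell precursor genes Cd79a (3648 to 4476 TPM) and Pax5 (786 to 835 TPM) were high throughout, as the sort would give. Dido1dE16 replicate 2 stood apart from the other 3 pre-B libraries in a part of the genes of red cells, neutrophils, macrophages and eosinophils. The log2 differences of several members and other genes are therefore also given without it. Among 86 other red cell genes with a mean of at least 1 TPM, 33 were highest in this library. With 2 libraries against 2, the smallest p of an exact permutation test (two-sided) is 0.333.

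Sequences are shown for the members at which the accessibility data or the shared RNA pattern bear on a regulatory region. In the promoters below, taken from RefSeq for build GRCm38 and printed 5′ to 3′ on the strand of the gene up to the base before the start site, capitals mark matches on either strand to GATA motifs (the letters that Gata1 and its relatives bind, searched as AGATAA, then with another first letter as TGATAA, with another last letter as AGATAG, and with both changed as TGATAG), to a CACC motif (CCNCNCCC, the kind of letters bound by Klf1 and other Krüppel-like factors), to CCAAT and to TATAA.
Hba-a1, chr11:32283472-32283671, plus strand: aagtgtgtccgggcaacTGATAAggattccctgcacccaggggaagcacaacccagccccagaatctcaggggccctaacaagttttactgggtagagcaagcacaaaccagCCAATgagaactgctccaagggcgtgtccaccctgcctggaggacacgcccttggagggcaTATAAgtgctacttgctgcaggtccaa
Klf1, chr8:84901832-84901981, plus strand: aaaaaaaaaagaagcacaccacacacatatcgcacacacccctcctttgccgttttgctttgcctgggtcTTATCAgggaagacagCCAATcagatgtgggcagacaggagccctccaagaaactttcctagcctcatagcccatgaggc
Alas2, chrX:150547267-150547416, plus strand: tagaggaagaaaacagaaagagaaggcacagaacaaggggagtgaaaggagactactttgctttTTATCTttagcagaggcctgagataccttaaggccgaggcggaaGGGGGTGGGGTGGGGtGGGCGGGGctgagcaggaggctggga
Epor, chr9:21963577-21963726, minus strand: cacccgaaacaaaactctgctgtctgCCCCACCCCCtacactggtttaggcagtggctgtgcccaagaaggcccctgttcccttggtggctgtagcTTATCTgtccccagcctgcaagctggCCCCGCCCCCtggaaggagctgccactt

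The table of promoters held 5 of the 8 members, the 4 printed and Gata1, and Car1, Car2 and Slc4a1 had no entry. Within the 250 bases before the start site, 1 GATA match was found in each of Hba-a1 (first base at position -183), Klf1 (-80), Epor (-54) and Alas2 (-86), counting -1 as the base before the start site, and none in Gata1. Of all 32841 promoters of the same length, 26.5% held a GATA match. CACC matches, with overlapping ones counted separately, numbered 4 in Epor, 4 in Alas2 and 3 in Gata1, and 0 in Hba-a1 and Klf1, and 45.9% of all promoters held at least 1. Epor and Alas2 thus held both kinds, as did 8.19% of all promoters. CCAAT was found in Hba-a1 (-88) and Klf1 (-64) and in 33.9% of all promoters, and TATAA in Hba-a1 (-27) and Alas2 and in 22.8% of all promoters. These matches describe letters in a window and not binding.

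The 8 members differed widely in level in pre-B cells. Hba-a1 had the highest level, 2 members were listed at 0 in every library, and 5 of the 8 had their highest TPM in Dido1dE16 replicate 2. TPM is scaled to transcript length, so levels can be set side by side between genes. Summed over the 8 members, WT replicates 1 and 2 had 183 and 472 TPM, and Dido1dE16 replicates 1 and 2 had 410 and 4205 TPM, or 0.0183%, 0.0472%, 0.0410% and 0.421% of all TPM. Dido1dE16 replicate 1 therefore lay between the WT libraries, and replicate 2 lay 10.2-fold above replicate 1. In bulk RNA, a larger share of erythroid cells and more RNA per cell cannot be told apart.

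**Figure D1:**
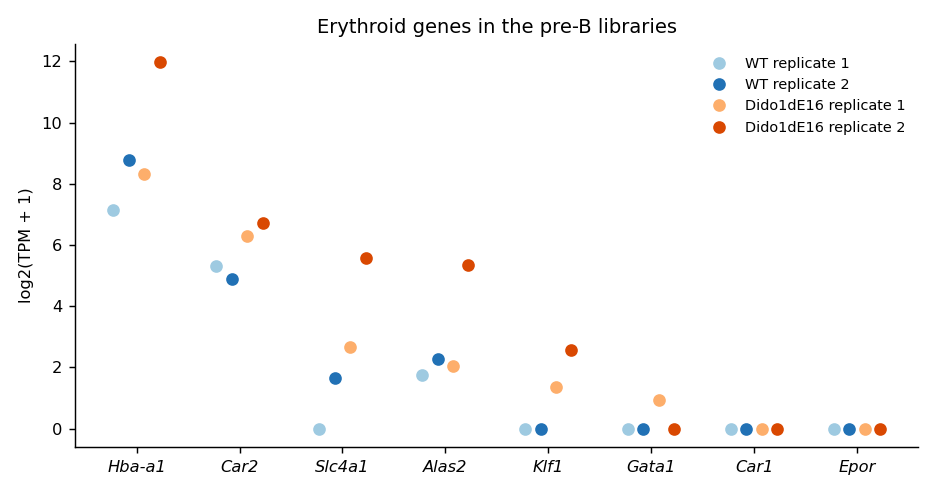
Level of the 8 erythroid genes in pre-B cells as log2(TPM + 1) on the vertical axis, with 1 point per library and gene (WT in blue, Dido1dE16 in orange, 2 libraries each). Hba-a1, Slc4a1 and Alas2 lie far higher in Dido1dE16 replicate 2 than elsewhere, Car2 lies higher in both Dido1dE16 libraries than in both WT libraries, and Car1 and Epor lie at 0.

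Hba-a1 encodes the alpha chain of adult haemoglobin. Its locus (chr11:32283672-32284493) had 141 and 437 TPM in WT replicates 1 and 2 and 321 and 4008 TPM in Dido1dE16 replicates 1 and 2. The genotypes overlapped, since WT replicate 2 was above Dido1dE16 replicate 1, and the 2 WT libraries already differed 3.09-fold. The log2 difference between genotypes was 2.19 on the log2(TPM + 1) scale (SE 1.38, n = 2 per genotype), and 0.37 without Dido1dE16 replicate 2. All 3 exons were covered in each library. Hba-a1 has a near-identical copy, Hba-a2, with which it shares reads, so the split between them is uncertain. Hba-a2 had 103 and 301 TPM in WT and 226 and 3010 TPM in Dido1dE16 libraries, and Hba-a1 was 1.33 to 1.45 times Hba-a2 in the 4 libraries. Adding both copies left the pattern as it was, with a log2 difference of 2.20.

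Alas2 catalyses the first step of haem synthesis in erythroid cells and is the form of that enzyme that other tissues lack. It had 2.39 and 3.87 TPM in WT replicates 1 and 2 and 3.10 and 40.0 TPM in Dido1dE16 replicates 1 and 2. As with Hba-a1, Dido1dE16 replicate 1 lay between the WT libraries, and replicate 2 was 12.9-fold above replicate 1. The log2 difference was 1.68 (SE 1.19, n = 2 per genotype) with all libraries and 0.015 without Dido1dE16 replicate 2. Of its 11 exons, 9 and 10 were covered in WT and 10 and 11 in Dido1dE16 libraries.

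Slc4a1 exchanges chloride and bicarbonate across the red cell membrane and anchors its skeleton. It was listed at 0 in WT replicate 1 and had 2.15 TPM in WT replicate 2 and 5.35 and 46.8 TPM in Dido1dE16 replicates 1 and 2. Both Dido1dE16 libraries were above both WT libraries, and replicate 2 was 8.75-fold above replicate 1. The coverage reached 12 of 20 exons in WT replicate 2, and 19 and 20 exons in the Dido1dE16 libraries. Without Dido1dE16 replicate 2 the log2 difference was 1.84, against 3.30 (SE 1.19, n = 2 per genotype) with it. That value depends on the pseudocount, since a library is at 0, and was 5.07 with a pseudocount of 0.1.

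Klf1 is the erythroid Krüppel-like factor that activates adult beta-globin and many other red cell genes. It was listed at 0 in both WT libraries and had 1.55 and 4.91 TPM in Dido1dE16 replicates 1 and 2. These low values rest on 1548 and 3479 aligned bases over a transcript of 1534 bases, on 3 and 2 of its 3 exons. Klf1 passed the filter of a mean of 1 TPM only through the Dido1dE16 libraries, and its log2 difference of 1.96 was 4.85 with a pseudocount of 0.1 and 0.98 on FPKM. Gata1, the GATA factor that erythroid and megakaryocytic cells depend on, was seen only in Dido1dE16 replicate 1, at 0.890 TPM from 1099 aligned bases on 5 of its 6 exons, and was listed at 0 in the other 3 libraries. Replicate 2, with the highest Hba-a1, therefore had no Gata1 reads assigned.

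Car2, the widely expressed cytosolic carbonic anhydrase, had a pattern of its own. It had 39.2 and 28.9 TPM in WT replicates 1 and 2 and 78.0 and 105 TPM in Dido1dE16 replicates 1 and 2. The genotypes did not overlap, and the libraries of a genotype lay within 1.35-fold of each other in Dido1dE16. The Dido1dE16 mean was 2.69-fold the WT mean, and the log2 difference of 1.40 (SE 0.24, n = 2 per genotype) was 1.19 without Dido1dE16 replicate 2. All 7 exons were covered in each library. Car1, its erythroid relative in the same gene cluster, and Epor, the receptor for erythropoietin, were listed at 0 TPM in all 4 libraries, with none of their 8 exons each covered.

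Counted over the 8 members, 3 (Car2, Klf1 and Slc4a1) were higher in both Dido1dE16 than in both WT libraries, and 0 were lower in both. Of the 8, 5 passed the filter of a mean of at least 1 TPM. Among all 11864 gene sums that passed it, 27.1% were higher in both Dido1dE16 libraries and 15.5% lower in both. Because the members were selected on these values, nothing is read from the 3 of 8. The median log2 difference of the 8 members was 1.54, beside 0.07 over all gene sums tested, and it was 0.64 without Dido1dE16 replicate 2. For the whole table, limma called 6 of 11864 gene sums (0.0506%) at a Benjamini-Hochberg adjusted p under 0.05 and an absolute log2 difference of at least 0.6, 3 higher and 3 lower, while 1384 had an unadjusted p under 0.05.

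Within a library the erythroid genes stood in different proportions to each other. Summed alpha-globin (Hba-a1 and Hba-a2) was 2.35 to 2.58 times summed beta-globin (Hbb-bs and Hbb-b2) in the 4 libraries, although the alpha-globin sum itself ran from 244 to 7018 TPM. Alas2 per 1000 TPM of alpha-globin was 9.77 and 5.24 in WT and 5.66 and 5.70 in Dido1dE16 libraries. Slc4a1 per 1000 TPM of alpha-globin was 0 and 2.92 in WT and 9.77 and 6.67 in Dido1dE16 libraries. Car2 per 1000 TPM of alpha-globin was 160 and 39.2 in WT and 142 and 14.996 in Dido1dE16 libraries. On centred log2(TPM + 1) values, the profile of Alas2 over the 4 libraries lay at a distance of 0.96 from Hba-a1 and Slc4a1 at 1.22, while Klf1 lay at 2.08 and Car2 at 2.80. Klf1 was nearer to Car2, at 0.84. As Klf1 was at 0 in both WT libraries, its distances depend on the pseudocount, and they were not computed with another one.

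Other genes of the red cell programme were taken from 8 lists chosen with earlier results of these data known. Of 119 listed genes, 116 were found and 86 passed the filter. None of the 86 was called by limma in either direction, and 18 had an unadjusted p under 0.05 (17 higher and 1 lower in Dido1dE16), or 20.9%, beside 11.7% of all gene sums tested. Some of the 17, such as Trim10 and Dmtn, were at 0 TPM in both WT libraries and passed the filter only through Dido1dE16. Such genes can only be higher in Dido1dE16, so nothing is read from these counts. The median log2 difference of the 86 was 0.26. Without Dido1dE16 replicate 2 it was 0.15. Of the 86, 33 had their highest level in Dido1dE16 replicate 2, or 38.4%, beside 23.6% of all gene sums tested.

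Among the globins, Hbb-bs, an adult beta-globin gene, had 54.3 and 180 TPM in WT and 124 and 1564 TPM in Dido1dE16 libraries (log2 difference 2.15, SE 1.39, adjusted p = 0.65 by limma, and 0.33 without Dido1dE16 replicate 2). The embryonic and minor globin genes, Hba-x, Hbb-bh1, Hbb-bh2, Hbb-y, Hbq1a and Hbq1b, were listed at 0 in all libraries. The globin RNA of these libraries was thus of the adult type. As in Hba-a1, the WT and Dido1dE16 libraries overlapped in Hba-a2, Hbb-bs and Hbb-b2, the 3 other globin genes that passed the filter.

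The 13 enzymes and carriers of haem metabolism differed less between libraries than Alas2 when summed. Without Blvrb, the highest of them, the other 12 summed to 451 and 424 TPM in WT and 427 and 452 TPM in Dido1dE16 libraries. The median log2 difference of the 13 was 0.18, and 7 were highest in Dido1dE16 replicate 2. Urod, a later enzyme of haem synthesis, had 93.8 and 76.2 TPM in WT and 97.1 and 95.8 TPM in Dido1dE16 libraries. Blvrb, a reductase of haem breakdown products, was lower in both Dido1dE16 libraries, with 459 and 453 TPM in WT against 249 and 245 TPM, a log2 difference of -0.88 (SE 0.11, adjusted p = 0.19 by limma), short of the threshold. Among iron genes, the ferritin chains Fth1 and Ftl1 were the highest and had log2 differences of -0.06 and -0.11. The iron exporter Slc40a1 had 1.12 and 0 TPM in WT and 4.06 and 25.3 TPM in Dido1dE16 libraries (log2 difference 2.99, adjusted p = 0.37 by limma, and 1.80 without Dido1dE16 replicate 2), and Trf, which encodes transferrin, had 9.50 TPM in WT replicate 1 and was listed at 0 in the other libraries.

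Some red cell membrane genes were above 0 TPM in Dido1dE16 replicate 2 alone, others were higher in both Dido1dE16 libraries, and others had neither pattern. The blood group genes Kel (4.40 TPM) and Rhag (3.76 TPM) and the membrane protein gene Epb42 (3.53 TPM) were of the first kind. Tmod1 was instead above 0 in Dido1dE16 replicate 1 alone, at 4.19 TPM. Slc2a1 was lower in both Dido1dE16 libraries, with 27.0 and 36.0 TPM in WT against 20.4 and 25.0 TPM. Cd36, a fatty acid and thrombospondin receptor, had 2.94 and 2.73 TPM in WT and 19.5 and 18.4 TPM in Dido1dE16 libraries (log2 difference 2.38, SE 0.24, adjusted p = 0.15 by limma). Gypc, a glycophorin also made outside the red cell lineage, had 18.6 and 16.6 TPM in WT and 46.2 and 42.2 TPM in Dido1dE16 libraries (log2 difference 1.28, SE 0.17, adjusted p = 0.19 by limma). The water channel gene Aqp1 had 0 and 1.33 TPM in WT and 3.11 and 18.9 TPM in Dido1dE16 libraries (log2 difference 2.57, and 1.43 without Dido1dE16 replicate 2). For Cd36 and Gypc the log2 differences without that library were 2.42 and 1.35. Of the 15 membrane genes tested, 10 were higher and 1 was lower in both Dido1dE16 libraries, and none was called. Over all gene sums tested, 27.1% were higher and 15.5% lower in both. Some of the 10, such as Dmtn (0 TPM in both WT libraries), passed the filter only through the Dido1dE16 libraries. Nothing is therefore read from the 10 of 15.

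Of 14 erythroid transcription factors tested, 1 was higher in both Dido1dE16 libraries and 0 had an unadjusted p under 0.05. Tal1 and Gata2, partners of the early erythroid programme, were listed at 0 throughout, while Myb (459 to 672 TPM) and E2f2 (371 to 590 TPM), both of which proliferating precursors use, were high. Nfe2 had 0 and 3.35 TPM in WT and 2.67 and 18.3 TPM in Dido1dE16 libraries (log2 difference 2.01, and 0.81 without Dido1dE16 replicate 2). In the erythropoietin signalling list, 9 of the 15 genes tested were higher and 3 lower in both Dido1dE16 libraries, 5 had an unadjusted p under 0.05, and none was called by limma. Over all gene sums tested, 27.1% were higher and 15.5% lower in both, and 11.7% had an unadjusted p under 0.05. The signalling genes with the largest differences were Socs2, an inhibitor of cytokine signalling induced by Stat5, and Kit, the stem cell factor receptor. Socs2 had 10.9 and 13.5 TPM in WT and 117 and 75.1 TPM in Dido1dE16 libraries (log2 difference 2.85, SE 0.28, adjusted p = 0.15 by limma). Kit had 1.63 and 0.599 TPM in WT and 9.74 and 9.06 TPM in Dido1dE16 libraries (adjusted p = 0.22 by limma). Both genes also act in other blood lineages.

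Late erythroblast genes and the other carbonic anhydrases gave both patterns. Trim10 was listed at 0 in both WT libraries and had 3.53 and 6.84 TPM in Dido1dE16 libraries (adjusted p = 0.23 by limma), and Rhd had 1.07 and 0 TPM in WT and 2.89 and 8.34 TPM in Dido1dE16 libraries. Gpx1 and Ccnd3, the highest genes of this list, had log2 differences of -0.32 and 0.38. Hemgn, a nuclear protein of erythroid cells, was seen in Dido1dE16 replicate 2 alone, at 11.3 TPM. Of the carbonic anhydrases beyond the members, Car15 was nearest to Car2, with 20.4 and 17.1 TPM in WT and 71.1 and 48.8 TPM in Dido1dE16 libraries (log2 difference 1.61, SE 0.25, adjusted p = 0.20 by limma). Car3, a neighbour of Car2 on chromosome 3, had 2.09 and 0 TPM in WT and 6.84 and 4.66 TPM in Dido1dE16 libraries, and Car13, another neighbour, had 19.9 and 14.1 TPM in WT and 29.5 and 20.8 TPM in Dido1dE16 libraries.

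**Figure D2:**
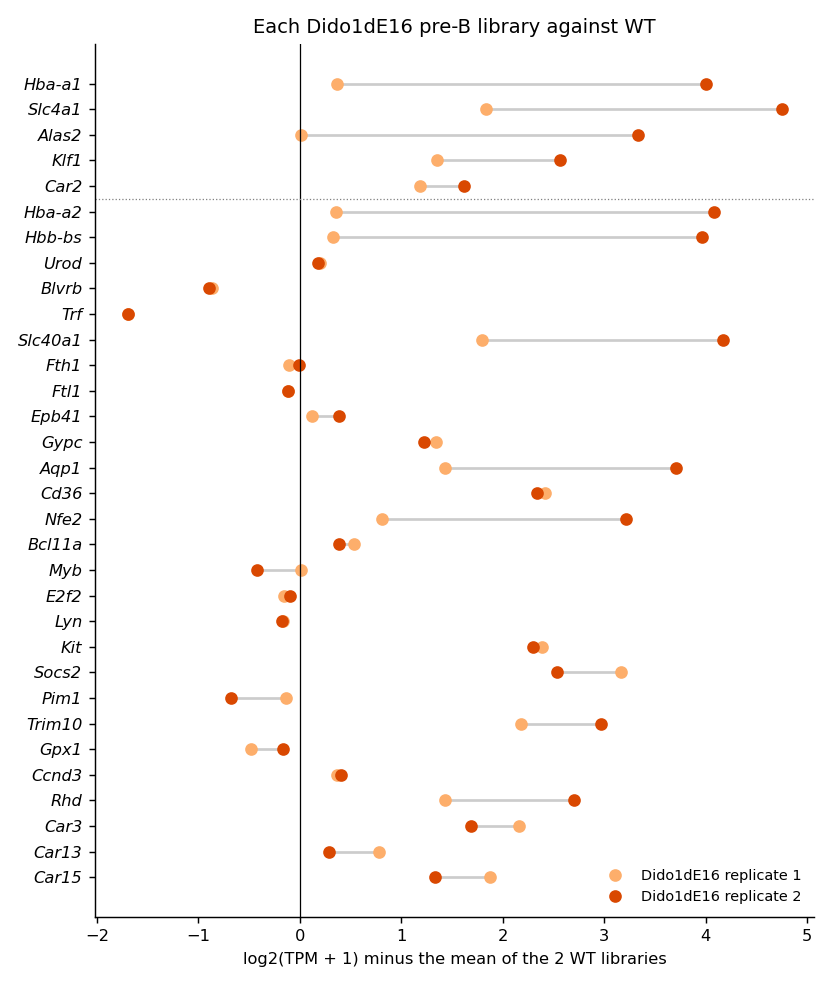
Difference of each Dido1dE16 pre-B library from the mean of the 2 WT libraries on the log2(TPM + 1) scale, for the 5 members that passed the filter (above the dotted line) and for the named genes of the 8 other lists (below it). The 2 points lie far apart for Hba-a1, Alas2, Slc4a1, Hba-a2, Hbb-bs, Slc40a1, Aqp1 and Nfe2, and close together for Car2, Gypc, Cd36, Kit, Socs2 and Car15.

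Sums of neutrophil markers and of monocyte and macrophage markers moved with the erythroid genes between libraries. The sums of the other marker lists had other orders of libraries. The summed TPM of 14 neutrophil markers ran 244 and 2292 (WT) and 1125 and 10107 (Dido1dE16), the same order of libraries as for the 8 members, and all 14 were highest in Dido1dE16 replicate 2. The neutrophil markers S100a8 (69.7 and 601 TPM in WT, 261 and 2146 TPM in Dido1dE16) and S100a9 (72.8 and 699 TPM, 353 and 2612 TPM) were the highest of that list. The 14 monocyte and macrophage markers summed to 15.1 and 111 TPM in WT and 71.5 and 399 TPM in Dido1dE16 libraries. Of the 13 with a mean of at least 1 TPM, 11 were highest in Dido1dE16 replicate 2. The others, C1qa (12.4 TPM in WT replicate 2) and Spic (5.67 TPM in Dido1dE16 replicate 1), were at 0 in it. The 11 basophil, mast cell and eosinophil markers summed to 6.74 and 37.5 TPM in WT and 45.7 and 630 TPM in Dido1dE16 libraries. These markers were led by Prg2 (337 TPM in Dido1dE16 replicate 2), and Dido1dE16 replicate 1 lay above WT replicate 2 in their sum. Il5ra of this list was seen in WT replicate 2 alone, at 2.93 TPM. Of those that mark basophils and mast cells, Ms4a2 and Fcer1a were listed at 0, but others were highest in Dido1dE16 replicate 2. Among these, Prss34 had 0 and 0 TPM in WT and 2.43 and 25.8 TPM in Dido1dE16 libraries. Mcpt8 had 0 and 2.14 TPM against 1.63 and 10.1 TPM, and Cpa3 had 0 and 0 TPM against 0.250 and 1.72 TPM. Of 13 T and NK cell markers, 7 were at 0 throughout, among them Cd3e and Cd8a. The 13 summed to 6.92 and 5.13 TPM in WT and 8.84 and 27.9 TPM in Dido1dE16 libraries. Nkg7 was seen in Dido1dE16 replicate 2 alone, at 16.3 TPM. Of 13 megakaryocyte and platelet markers, 5 including Pf4 were at 0 throughout, and their sum was 26.0 and 22.8 TPM in WT and 60.6 and 84.6 TPM in Dido1dE16 libraries.

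The neutrophil sum was 1.00 and 3.11 times summed alpha-globin in WT and 2.05 and 1.44 times in Dido1dE16 libraries. By contrast, the sums of 15 B-cell precursor markers lay closer together, at 16964 and 19047 TPM in WT and 21097 and 20314 TPM in Dido1dE16 libraries. Of the 15, 0 were called by limma and 4 had an unadjusted p under 0.05, beside 0.0506% and 11.7% of all gene sums tested. Nothing is read from these counts. The 4 were Vpreb1, Vpreb2, Igll1 and Dntt, each higher in both Dido1dE16 libraries. Vpreb1 and Vpreb2 are parts of the surrogate light chain of early B-cell precursors, and Vpreb1 had 108 and 40.9 TPM in WT against 1222 and 738 TPM (adjusted p = 0.19 by limma). Igll1 had 112 and 34.4 TPM in WT against 424 and 252 TPM, and Dntt 48.7 and 7.18 TPM against 191 and 96.0 TPM. The 12 stem and progenitor markers summed to 20.3 to 34.3 TPM, and the 9 plasma cell markers to 1435 to 1794 TPM. Neither of these sums was highest in Dido1dE16 replicate 2. The part of these other cells in the levels of the erythroid genes was not tested.

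**Figure D3:**
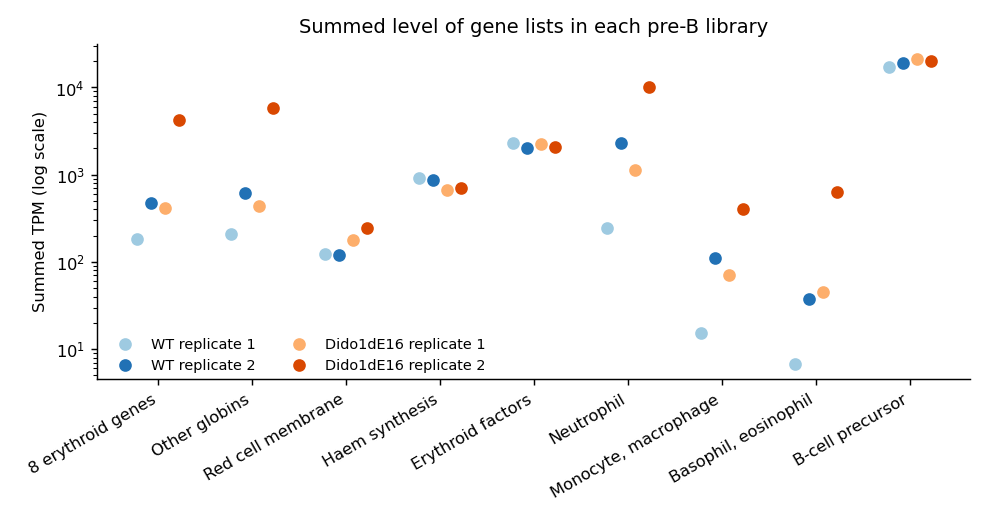
Summed TPM of gene lists (log axis) in each pre-B library, with 1 point per library and list. The 8 erythroid genes, the other globins and the neutrophil, macrophage and basophil or eosinophil markers are highest in Dido1dE16 replicate 2 and lowest in WT replicate 1, while haem genes, erythroid factors and B-cell precursor markers lie close together.

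The 10 gene sums whose profile over the 4 pre-B libraries lay nearest to the mean profile of the 5 members that passed the filter were Echdc1, Gda, Alox5ap, 6430548M08Rik, Asprv1, Csf1r, Trem1, Cd300lf, Dgat2 and Aqp1, at distances of 0.29 to 0.60 on centred log2(TPM + 1) values. Klf1, among the 5, and 6430548M08Rik, Trem1, Cd300lf and Dgat2 were at 0 in both WT libraries. They passed the filter only through the Dido1dE16 libraries, so nothing is read from which genes lay near. Echdc1, the nearest, had 0 and 0.896 TPM in WT and 2.15 and 14.4 TPM in Dido1dE16 libraries. Of the 10, Aqp1 is known for the red cell membrane, while Csf1r, the receptor of the macrophage growth factor, and Trem1 and Alox5ap are known from monocytes and neutrophils. Csf1r had 0.321 and 1.79 TPM in WT and 1.64 and 11.9 TPM in Dido1dE16 libraries. The mean profile was -1.39 and -0.71 in WT and -0.10 and 2.20 in Dido1dE16 libraries.

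In LSK cells 5 of the 8 members (Hba-a1, Car2, Klf1, Epor and Alas2) had a MACS2 peak in at least 1 library, and Car2 and Klf1 had one in all 4. WT replicates 1 and 2 had 4 and 9 member peaks, and Dido1dE16 replicates 1 and 2 had 2 each. Car1, Gata1 and Slc4a1 had no peak by either caller in any library, nor was one found from 10 kb before to 10 kb after these genes under another gene's name. Members with fewer peaks in both Dido1dE16 than in both WT libraries were 2 of the 5 with a peak in any library, Car2 and Epor. HOMER also called fewer for Car2, but had 1 Epor peak in each WT library and in Dido1dE16 replicate 2. Among 17769 genes with a MACS2 peak in any library, 35.6% had fewer in both Dido1dE16 libraries. When each library was cut to its 13208 best-scoring peaks, the number of the shortest list, member peaks numbered 2 and 2 in WT and 2 and 1 in Dido1dE16 libraries.

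Car2 had a peak over its start site in each LSK library. MACS2 gave it scores of 86 and 159 in WT and of 35 and 62 in Dido1dE16 libraries, higher than 89.9%, 92.6%, 39.3% and 85.2% of the peaks of the same library. A second peak lay 5848 and 5798 bp before the start site in the WT libraries (scores 22 and 35) and had no counterpart in the Dido1dE16 libraries. WT replicate 2 alone had further peaks in exon 2 and 25642 and 28925 bp past the start site. HOMER also called a peak 28974 bp past the start site in Dido1dE16 replicate 2. Scores depend on depth, and they were not compared between libraries by a test.

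The authors' lists of regions differing between genotypes held regions within 20 kb of the start site of Car2 and of no other member. As these regions are listed because they passed the authors' own test, their tag counts are a description. Over the Car2 start site (chr3:14886071-14887589), normalised log2 tag counts were 8.42 and 8.15 in WT and 7.31 and 7.26 in Dido1dE16 libraries, a difference of -0.999 with an SD of 0.19 in WT and 0.033 in Dido1dE16 (n = 2 each). In a region 14651 bp before it (chr3:14871299-14871775) they were 7.09 and 7.22 in WT and 6.03 and 6.03 in Dido1dE16 libraries, a difference of -1.13. Accessibility at Car2 was thus lower in both Dido1dE16 LSK libraries, while Car2 RNA was higher in both Dido1dE16 pre-B libraries. The 2 measurements come from different cells and cannot be set against each other within a library.

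Klf1 had its peak in exon 2 in all 4 LSK libraries, with scores of 22 and 69 in WT and 35 and 18 in Dido1dE16 libraries, 722 to 1090 bp past the start site. The stretch of 289 bases common to the 4 peaks lies in the exon. Epor had a peak in intron 1 in both WT libraries (scores 66 and 112), and MACS2 called none in Dido1dE16 libraries. HOMER called the same place in both WT libraries and in Dido1dE16 replicate 2, where the peak reached to 53 bp past the start site. Alas2 had a MACS2 peak in intron 1 in WT replicate 2 alone (score 25), where HOMER added peaks in intron 8 and 36532 bp before the start site. Hba-a1 had a peak over its promoter in WT replicate 2 alone (chr11:32283508-32283822, score 20), which covers most of the promoter printed above, and its score exceeded those of 9.56% of the peaks of that library. WT replicate 2 is also the ATAC-seq library with the most tags and peaks.

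The 3 regions follow, from the RefSeq genome of build GRCm38 and on the strand of the gene, with GATA and CACC matches in capitals as above. They are shown because they are the accessible places of Klf1, Epor and Alas2 in these progenitors.
Klf1 exon 2, chr8:84903018-84903306, plus strand: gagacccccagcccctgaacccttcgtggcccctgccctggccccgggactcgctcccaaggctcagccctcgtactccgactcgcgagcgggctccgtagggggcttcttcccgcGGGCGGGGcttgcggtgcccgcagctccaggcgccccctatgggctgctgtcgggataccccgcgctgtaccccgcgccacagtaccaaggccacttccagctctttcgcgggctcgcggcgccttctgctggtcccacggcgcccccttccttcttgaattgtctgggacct
Epor intron 1, chr9:21962487-21962724, minus strand: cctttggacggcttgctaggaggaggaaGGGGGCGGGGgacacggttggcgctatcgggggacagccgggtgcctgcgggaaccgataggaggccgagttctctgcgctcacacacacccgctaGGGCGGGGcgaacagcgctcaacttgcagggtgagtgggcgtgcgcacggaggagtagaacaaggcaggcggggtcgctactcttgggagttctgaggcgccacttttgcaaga
Alas2 intron 1, chrX:150549712-150550011, plus strand: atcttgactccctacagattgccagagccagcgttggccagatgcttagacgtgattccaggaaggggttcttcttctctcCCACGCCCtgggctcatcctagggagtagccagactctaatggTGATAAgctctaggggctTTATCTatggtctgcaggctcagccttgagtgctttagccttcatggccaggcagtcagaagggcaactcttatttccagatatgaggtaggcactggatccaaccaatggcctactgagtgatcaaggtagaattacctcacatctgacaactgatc

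The 300 bases of the Alas2 intron held 2 GATA matches, on opposite strands, and 1 CACC match. Of the 57739 MACS2 peaks of WT replicate 2, 8.55% held 2 or more GATA matches in their central 300 bases, and 37.0% held a CACC match. The Epor region held 3 CACC matches and no GATA match, and 7.10% of those peaks held 3 or more CACC matches in their central 238 bases. The Klf1 region held 1 CACC match and no GATA match. It was also rich in G and C, at 70.6%, beside 65.1% in the Epor and 50.7% in the Alas2 region.

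**Figure D4:**
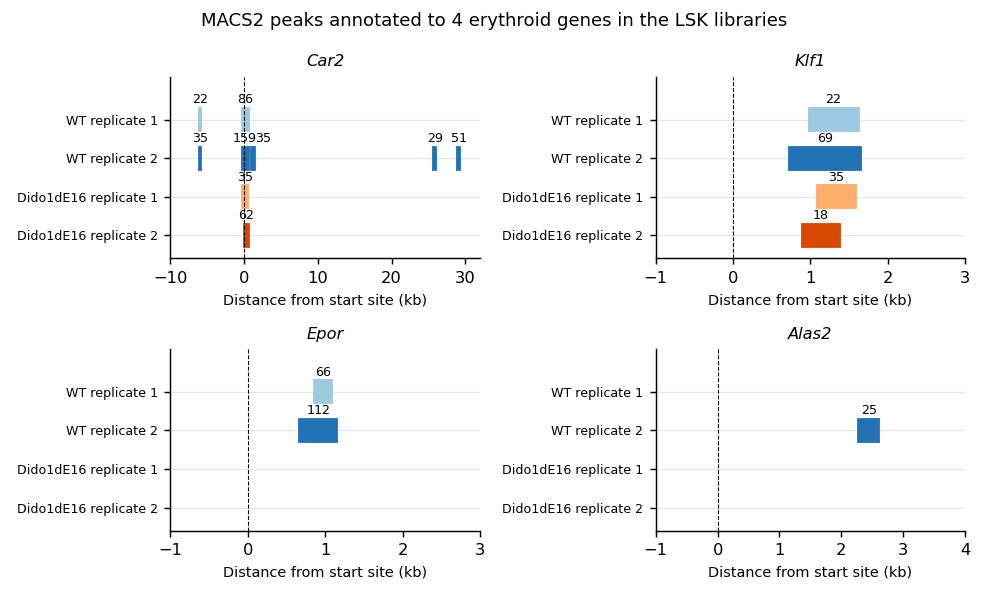
MACS2 peaks annotated to Car2, Klf1, Epor and Alas2 in the 4 LSK libraries (rows), as bars at their distance from the start site in kb in the direction of transcription, with the score of each peak above its bar. Car2 and Klf1 have a peak in each library, Epor in the 2 WT libraries, and Alas2 in WT replicate 2.

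The loci around the globin genes were accessible in more places in WT libraries. From Snrnp25 to Hbq1a, with 10 kb on each side, the alpha-globin locus held 6 and 14 MACS2 peaks in WT and 3 and 2 in Dido1dE16 libraries, and within that stretch Nprl3, whose introns are known to hold enhancers of alpha-globin, held 3 and 8 against 2 and 1, counted with the same 10 kb on each side. The beta-globin locus held 3 and 7 peaks in WT and 0 and 1 in Dido1dE16 libraries. The carbonic anhydrase cluster from Car13 to Car2 held 7 and 11 against 2 and 3. Among the other lists, haem genes had a promoter peak in 11 to 13 of 13 in each library, while red cell membrane genes had one in 6 and 14 of 20 in WT and 3 and 4 in Dido1dE16 libraries. Of all genes with a peak in any library, 53.0% and 68.3% had a promoter peak in WT and 42.6% and 42.7% in Dido1dE16 libraries. Of 18 erythroid factors, 17 and 18 had a peak in WT and 13 and 13 in Dido1dE16 libraries, Tal1 with 3 and 5 peaks in WT and 1 and 1 in Dido1dE16, and Gata2 with 1 and 2 against 0 and 0. Of all those genes, 76.9% and 97.2% had a peak in WT and 54.3% and 59.6% in Dido1dE16 libraries. The peak lists of the WT libraries were also the longer ones, and the part of list length in these counts was not tested.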

How the data were processed

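RNA-seq of pre-B cells and Omni-ATAC-seq of LSK cells were analysed, 2 WT and 2 Dido1dE16 libraries each. Per the submitters' processing notes and the study's methods, reads were aligned to GRCm38 with BWA 0.7.15, and ATAC-seq reads also with Bowtie2. BWA-MEM clips reads at exon junctions and places a read that matches both alpha-globin copies at only one of them, which can shift their levels. The authors deposited TPM, FPKM and coverage per transcript from StringTie 2.0 on UCSC known genes. For ATAC-seq the authors deposited MACS2 peaks with a score, HOMER peaks and lists of differential regions with log2 normalised tag counts per library, called per library and annotated with ChIPseeker. The columns of the authors' own comparisons (fold changes, p-values) were not used.

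Transcripts were named by the deposited symbol or, for 26256 without one, by at least 50% exonic overlap with GENCODE, and the transcript at the Hba-a1 locus, which carries the deposited symbol Hba-a2, was counted as Hba-a1. TPM was summed per gene. Log2(TPM + 1) of 11864 gene sums with a mean of at least 1 TPM went into limma 3.58.1 under R 4.3.3 (eBayes with a trend, no block), with calls made at a Benjamini-Hochberg adjusted p under 0.05 where the log2 difference was at least 0.6 in size. On simulated data for this comparison with 11864 gene sums, 49.3%, 67.2% and 81.8% of gene sums changed by 2, 4 and 6 log2 units were called, and 4 unchanged ones. TPM keeps no read depth, so no counting interval is given. Libraries of a genotype are pools of mice, and p-values measure the spread between those pools.

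The members and lists were chosen with earlier results of these data known. All members are named, as are called genes of the other lists or else the 2 genes of each list with the largest differences and the 2 with the highest mean TPM, and the 10 gene sums nearest in profile. Genes seen in 1 library alone, Hbb-b2, Slc2a1, Igll1, Dntt and genes at 0 were named after their values were seen. Some genes that this rule names are not reported here. Motifs were searched on both strands. Alternatives were another pseudocount (0.1), no filter, FPKM, centring, rescaling, 1 transcript per gene, a block for the replicate number, eBayes without a trend, HOMER peaks, equal peak numbers, peaks within 10 kb, and leaving out each library. Python 3.11.15, pandas 2.3.3, numpy 2.4.6 and matplotlib 3.10.9 were used.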

Additional observations from a re-analysis of the deposited data

How the results depend on the processing

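The number of gene sums called by limma, 6 with the settings reported, was 0 with a pseudocount of 0.1 (1352 at an unadjusted p under 0.05), without the filter (1634) and with the replicate block (1070), and 0 to 0 when each library was left out in turn (804 to 2605). It was 11 with 1 transcript per gene and 87 with eBayes without a trend. With a library left out, the 1 that remains of its genotype is assumed to vary like the other genotype. The cause of these differences was not tested. Deviations of equally numbered libraries from their group means correlated at r = 0.050 over gene sums. With 2 libraries per genotype this cannot show whether equally numbered libraries shared a preparation. The block changed no value of a member, as it cannot change a genotype difference in this balanced design. Of the 86 other erythroid genes, 1 (Cd36) was called with eBayes without a trend, and 0 under the other alternatives. Members higher in both Dido1dE16 libraries were 3 to 5 of 8 when a library was left out, 5 without WT replicate 2 or without Dido1dE16 replicate 1, and 3 under the other alternatives. Their median log2 difference was 0.64 to 2.09 when a library was left out. Slc4a1 and Klf1, at 3.30 and 1.96, were 5.07 and 4.85 with a pseudocount of 0.1 and 2.34 and 0.98 on FPKM. Naming by deposited symbols alone, chosen after seeing the data, called 9 of 9992 gene sums. Member peaks in Dido1dE16 minus WT LSK libraries, -4.5 on average with MACS2, were -6.5 with HOMER and -0.5 with equal numbers of best-scoring peaks, and -7 to -2 when a library was left out. Members with a promoter peak differed by -0.5, and by 0 with HOMER and 0 with equal numbers, and by -1 to 0 when a library was left out.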

Other observations

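Genes that neighbour the alpha-globin genes on chromosome 11, taken by position, differed among themselves in pre-B cells. Il9r, the receptor of interleukin 9, had 1.68 and 0.876 TPM in WT replicates 1 and 2 and 48.6 and 64.7 TPM in Dido1dE16 replicates 1 and 2 (log2 difference 4.67, SE 0.31, adjusted p = 0.090 by limma, higher in 2 of 2 libraries). Rhbdf1, an inactive rhomboid protein, was listed at 0 in both WT libraries and had 9.03 and 4.55 TPM in Dido1dE16 libraries (adjusted p = 0.22 by limma). Snrnp25, a component of the minor spliceosome, had 46.3 and 39.1 TPM in WT and 125 and 118 TPM in Dido1dE16 libraries (log2 difference 1.49, SE 0.15, adjusted p = 0.15 by limma). Nprl3 and Mpg, between them and the globin genes, had 17.1 to 23.2 TPM and 12.5 to 19.1 TPM. None passed the threshold. The 2 Dido1dE16 libraries lay closer together in these neighbours than in Hba-a1.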
